A study of Mus musculus with 8 samples.

Results

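The genes described here are 34 genes of the interferon response and of MHC class II antigen presentation, chosen by name, and each was found as 1 of the 41128 gene symbols of the deposited count table. They comprise 3 interferon receptor chains, 5 signal transducers and interferon regulatory factors, 1 RNA sensor, 20 interferon-induced effectors and 5 class II genes. The RNA came from the corpus callosum, the large white matter tract between the cerebral hemispheres, of PLP-150Q mice. In these mice a promoter active in oligodendrocytes drives an N-terminal fragment of mutant huntingtin, which makes them a glial model of Huntington's disease. Mice that were 3 months old received LAQ (read here as laquinimod, an oral immunomodulator) at 5 mg/kg, or purified water as vehicle, for 2 months, and the tissue was taken at 5 months of age. There were 4 control libraries (control 1 to 4) and 4 LAQ libraries (LAQ 5 to 8). All 8 carry the transgene, so the data hold no comparison with mice that lack it. The labels do not state that each library is a separate mouse, and the p-values then reflect just the spread among these libraries, part of which may be technical.

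Type I interferons bind a receptor made of Ifnar1 and Ifnar2, whose kinases phosphorylate STAT proteins, Stat2 among them. With Irf9 these form the complex ISGF3, which binds the interferon-stimulated response element (ISRE) and switches on antiviral genes such as the Ifit, Oas and Mx genes. Interferon gamma binds Ifngr1 and Ifngr2 and acts through STAT dimers on the gamma-activated site (GAS), among whose targets is Irf1. MHC class II molecules present peptides to CD4 T cells. Their genes carry the conserved X and Y boxes and need the coactivator Ciita, and in the healthy brain they are found mainly in border macrophages, dendritic cells and some microglia.

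These elements can be read in the promoters of the members. The RefSeq promoter table (GRCm38.p6) held 25 of the 34 members, and the 250 bases before each annotated start were searched on both strands. The letters were GAAA, any 2 bases and GAAA for the ISRE core, TTCNNNGAA for the GAS core, CTGATTGG for the Y box core and TGACGTCA for the X2 box core, and matches may overlap. The 6 stretches shown first belong to the members with the smallest p-values that had a match, and H2-Eb1 was added, after its match was seen, for comparison with H2-Aa. Capitals mark the matches, and each stretch is written 5′ to 3′ on the strand of the gene.
Bst2, chr8:71537548-71537647, minus strand, overlapping GAS and ISRE cores: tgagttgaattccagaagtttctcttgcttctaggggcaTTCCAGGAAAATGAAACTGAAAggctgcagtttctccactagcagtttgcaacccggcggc
Irf1, chr11:53769879-53769978, plus strand, GAS core: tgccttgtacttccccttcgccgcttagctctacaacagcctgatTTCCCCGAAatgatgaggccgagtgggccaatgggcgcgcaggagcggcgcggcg
H2-Aa, chr17:34287832-34287931, minus strand, X2 box then Y box: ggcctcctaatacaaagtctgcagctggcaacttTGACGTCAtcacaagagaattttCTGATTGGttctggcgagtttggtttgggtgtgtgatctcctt
Isg15, chr4:156200836-156200935, minus strand, overlapping ISRE cores: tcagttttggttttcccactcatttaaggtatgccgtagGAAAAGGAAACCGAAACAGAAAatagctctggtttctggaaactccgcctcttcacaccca
Trim30a, chr7:104465194-104465293, minus strand, ISRE core on the other strand: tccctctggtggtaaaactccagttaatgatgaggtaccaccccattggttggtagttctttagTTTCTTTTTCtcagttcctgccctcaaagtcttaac
Ifit2, chr19:34550444-34550543, plus strand, GAS core: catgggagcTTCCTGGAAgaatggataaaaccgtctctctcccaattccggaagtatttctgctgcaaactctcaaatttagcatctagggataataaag
H2-Eb1, chr17:34305759-34305858, plus strand, Y box: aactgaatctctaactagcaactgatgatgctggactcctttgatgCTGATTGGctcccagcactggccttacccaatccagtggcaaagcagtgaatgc

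The ISRE core was present in 8 of the 25 members (Stat2, Ifit1, Ifit3, Isg15, Oas1a, Bst2, Rsad2 and Trim30a) and in 3.46% of the 27025 genes of the table. The GAS core was present in 5 members (Ifnar2, Irf1, Ifit2, Oas1a and Bst2) and in 8.13% of all genes. The Y box core was found in H2-Aa and H2-Eb1 and in 4.43% of all genes, and the X2 box core in H2-Aa and in 1.77% of all genes. The other class II members, H2-Ab1, Cd74 and Ciita, were not among the 25, so their promoters were not searched. In H2-Aa the X2 box begins 74 bases and the Y box 51 bases before the start. Such matches describe letters and show no binding.

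The libraries held 8790749 to 12021429 counted reads. Values per gene are CPM, the reads of a gene scaled to the TMM-adjusted size of its library. LAQ 7 stood apart: its counts differed from those of the other LAQ libraries with a chi-square of 16.1 to 25.6 for each degree of freedom, against 7.87 to 8.93 among those 3 and 4.24 to 6.07 among the controls. Results that rest on it are therefore also given without it. The tissue label was met by oligodendrocyte RNA, with Mbp (myelin basic protein) at 6391 to 8887 CPM. Neuronal RNA was present too, with Snap25, a neuronal vesicle fusion protein, at 2181 to 3032 CPM. By edgeR's quasi-likelihood test, 0 of 15771 tested genes had an adjusted p under 0.05, while 1750 had an unadjusted p under 0.05. DESeq2 called 129 of 15258 genes (0.845%), none of them a member.

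Interferon ligand RNA was near 0 in all 8 libraries, and the members differed widely in level. Their levels were compared among the members alone. Of the 21 interferon ligand genes in the table, 19 had 0 counts in every library, and the largest total over the 8 libraries was 7 reads, for Ifnk. Per kilobase of exonic length, Ifi27 had the highest control mean of the members, with 32.7 CPM per kb, ahead of Cd74 with 16.7. The receptor chains followed at 12.2 (Ifngr1), 9.51 (Ifnar1) and 6.97 (Ifnar2) CPM per kb, with Cmpk2 at 7.69 among them. The classical effectors were far lower, at 1.70 for Ifit3, 1.65 for Isg15, 1.13 for Ifit1 and 0.674 for Rsad2 CPM per kb. Mx1 was lowest at 0.0660 CPM per kb. Ifi44, Mx1, Mx2 and H2-Eb1 lay below the expression filter, and the other 30 members were tested.

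**Figure D1:**
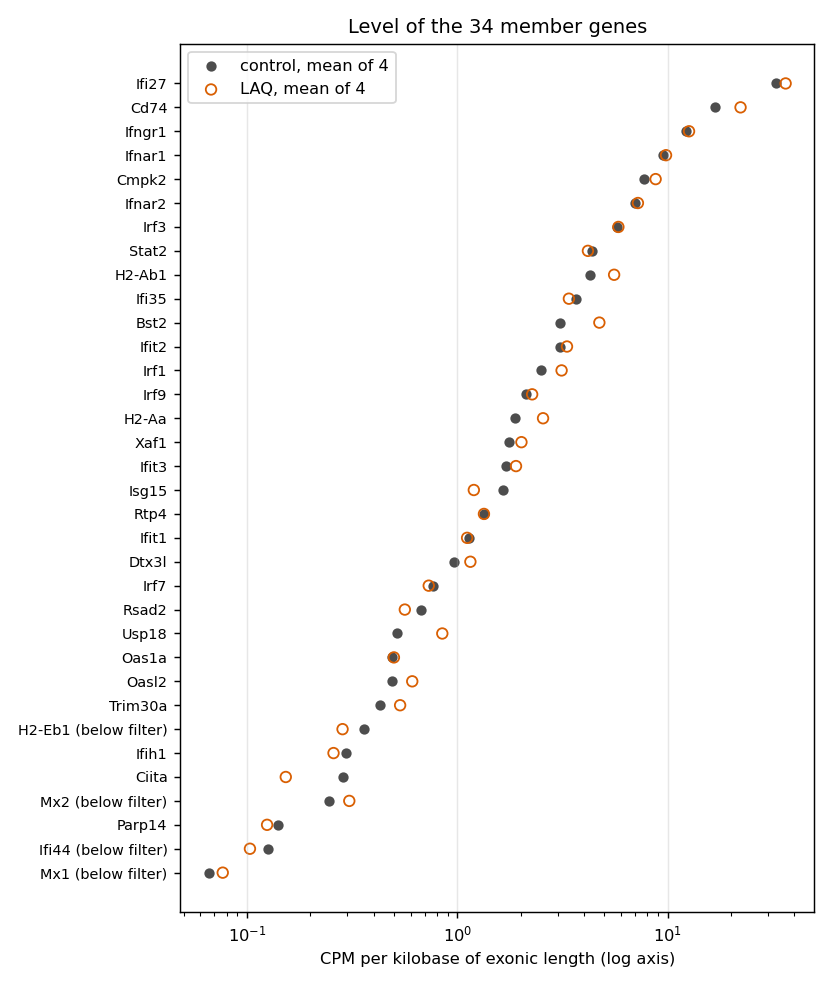
Mean level of the 34 members in control (filled) and LAQ (open) libraries, 4 libraries each, as CPM per kilobase of merged exons on a log axis. Ifi27 and Cd74 lead, Mx1 is lowest with 0.0660 in control, and the group means of most genes lie close together.

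No member passed the adjusted threshold in LAQ against control. Among all tested genes 0% passed it, and the smallest adjusted p of a member was 0.360 (edgeR, Bst2). Of the 30 tested members, 4 (13.3%) had an unadjusted edgeR p under 0.05, beside 11.1% of all tested genes. These were Bst2, Cmpk2 and Irf1 with higher means in LAQ (background in that direction 4.77%) and Ciita with a lower one (background 6.33%). The groups did not overlap for 2 members (6.67%), Bst2 and Cmpk2, beside 6.39% of all tested genes. Both were higher in LAQ, as were 2.78% of all tested genes without overlap, while 3.61% were lower. The members' shares are thus near the background. The log2 fold change was above 0 in 21 of the 30 members, beside 49.7% of all tested genes, and its median was 0.08 beside -0.0012. Without LAQ 7 it was above 0 in 16 of 30, with a median of 0.01. Then 7 members had an unadjusted p under 0.05 (Ifi27, H2-Aa and Cd74 beside the former 4), where 19.7% of all tested genes did, and none was among the 339 genes (2.13%) past the adjusted threshold.

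**Figure D2:**
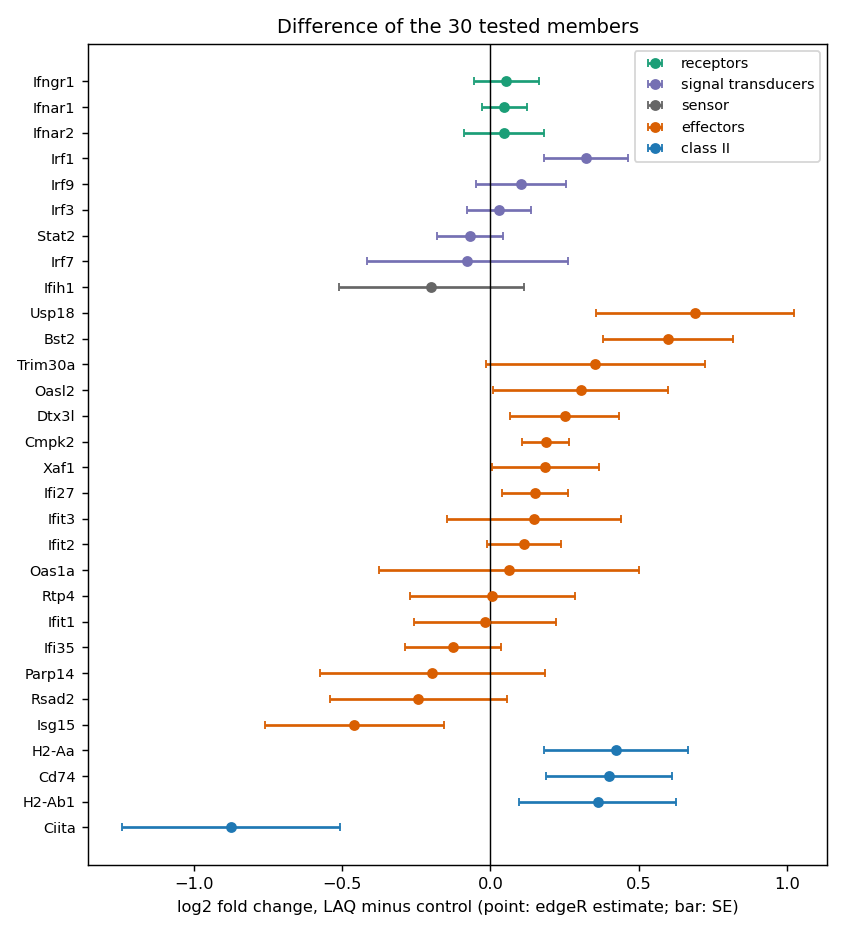
Log2 fold change (LAQ minus control) of the 30 tested members, grouped by role, as edgeR's estimate with its standard error. Usp18 has the highest estimate at 0.69 and Ciita the lowest at -0.88, and the 3 receptor chains lie at 0.05.

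The receptor chains showed no difference larger than their spread. Ifnar1, a chain of the type I interferon receptor, stood at 52.0, 57.8, 60.1 and 56.0 CPM in control 1 to 4 and at 60.1, 55.0, 62.3 and 55.7 CPM in LAQ 5 to 8. The groups covered nearly the same range. The estimated log2 fold change was 0.05 ± 0.08 (SE), with a 95% interval of -0.12 to 0.21. For Ifnar2, its partner chain, the control mean was 23.2 ± 4.08 CPM and the LAQ mean 24.0 ± 2.85 CPM (mean ± SD of 4 libraries, as in all pairs of means given here). Ifngr1, the ligand-binding chain of the interferon gamma receptor, had a control mean of 34.6 ± 2.72 CPM and a LAQ mean of 35.9 ± 5.08 CPM. For these 2 genes the 95% intervals of the log2 fold change were -0.25 to 0.34 and -0.19 to 0.29. None of the intervals reaches a 1.5-fold difference in either direction. Ifnar2 shares 9.46% of its exonic length with Gm21970 on the same strand, so its count is uncertain.

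Among the signal transducers, Irf1 had the largest difference. Irf1, a transcription factor induced by interferon gamma and an activator of class II transactivator and antiviral genes, stood at 8.70, 9.91, 10.5 and 10.6 CPM in control 1 to 4. In LAQ 5 to 8 it stood at 14.4, 12.2, 10.1 and 12.998 CPM. LAQ 5, 6 and 8 lay above every control library, and LAQ 7 lay within the control range. The estimated log2 fold change was 0.32 ± 0.14 (SE; edgeR p 0.0429, adjusted p 0.438), or 0.41 with an adjusted p of 0.129 without LAQ 7. Stat2, a STAT protein of ISGF3, had a control mean of 25.9 ± 3.43 CPM and a LAQ mean of 24.7 ± 2.01 CPM. Irf9, the DNA-binding part of ISGF3, averaged 11.4 ± 0.919 and 12.2 ± 2.32 CPM, and Irf3, which is activated by nucleic acid sensing, averaged 19.6 ± 1.55 and 20.04 ± 1.91 CPM. None of these 3 had a difference larger than its spread. Irf7, the factor that amplifies type I interferon production, stood at 3.34, 3.01, 2.86 and 2.40 CPM in control. In the LAQ libraries it stood at 1.33, 1.98, 3.05 and 4.68 CPM. Its LAQ values ran from below to above the whole control range, and the 95% interval of its log2 fold change was -0.82 to 0.66.

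Ifih1 (MDA5), a cytosolic sensor of double-stranded RNA, had a control mean of 2.40 ± 0.972 CPM and a LAQ mean of 2.11 ± 0.314 CPM. Its lowest value was 1.144 CPM in control 3 and its highest 3.44 CPM in control 1, so the control libraries enclosed all LAQ libraries.

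Of the 20 effectors 17 were tested, and 12 had a log2 fold change above 0. Bst2 (tetherin, which holds budding virus at the cell surface) had the smallest p of all members. It stood at 2.58, 2.67, 2.52 and 3.39 CPM in control 1 to 4 and at 5.14, 3.51, 3.54 and 4.89 CPM in LAQ 5 to 8. All LAQ libraries lay above all control libraries, although LAQ 6 exceeded control 4 by a small margin. The difference was 1.53-fold, with a log2 fold change of 0.60 ± 0.22 (SE), an edgeR p of 0.0188 and an adjusted p of 0.360. It was 0.68 without LAQ 7, with an adjusted p of 0.140.

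Cmpk2, a mitochondrial nucleotide kinase induced by interferon, stood at 33.7, 30.3, 33.5 and 30.5 CPM in control and at 37.2, 36.6, 34.7 and 37.2 CPM in LAQ. The groups did not overlap, and the difference was 1.138-fold (log2 fold change 0.19 ± 0.08 SE, edgeR p 0.0366, adjusted p 0.422). Rsad2 (viperin, an antiviral enzyme) is the neighbour of Cmpk2 on chromosome 12, with 12751 bases between them and opposite strands. Rsad2 had a control mean of 2.92 ± 0.869 CPM and a LAQ mean of 2.44 ± 0.705 CPM, about an order of magnitude below Cmpk2, and its groups overlapped. Rsad2 had an ISRE core in the window searched, and no match was found in that of Cmpk2.

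Usp18, a protease that removes Isg15 from proteins and restrains the interferon receptor, stood at 2.10, 1.11, 0.915 and 1.66 CPM in control. In LAQ 5 to 8 it stood at 2.10, 1.62, 3.46 and 2.29 CPM. LAQ 7 was highest and the groups overlapped. The log2 fold change was 0.69 ± 0.33 (SE, edgeR p 0.0618, adjusted p 0.466), or 0.44 without LAQ 7. Isg15, the ubiquitin-like protein that Usp18 removes, had the opposite sign. Isg15 stood at 1.53, 1.00, 1.37 and 1.08 CPM in control and at 0.857, 0.900, 0.824 and 1.04 CPM in LAQ. These values rest on 9 to 16 reads per library, and the log2 fold change was -0.46 ± 0.30 (SE, edgeR adjusted p 0.599).

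**Figure D3:**
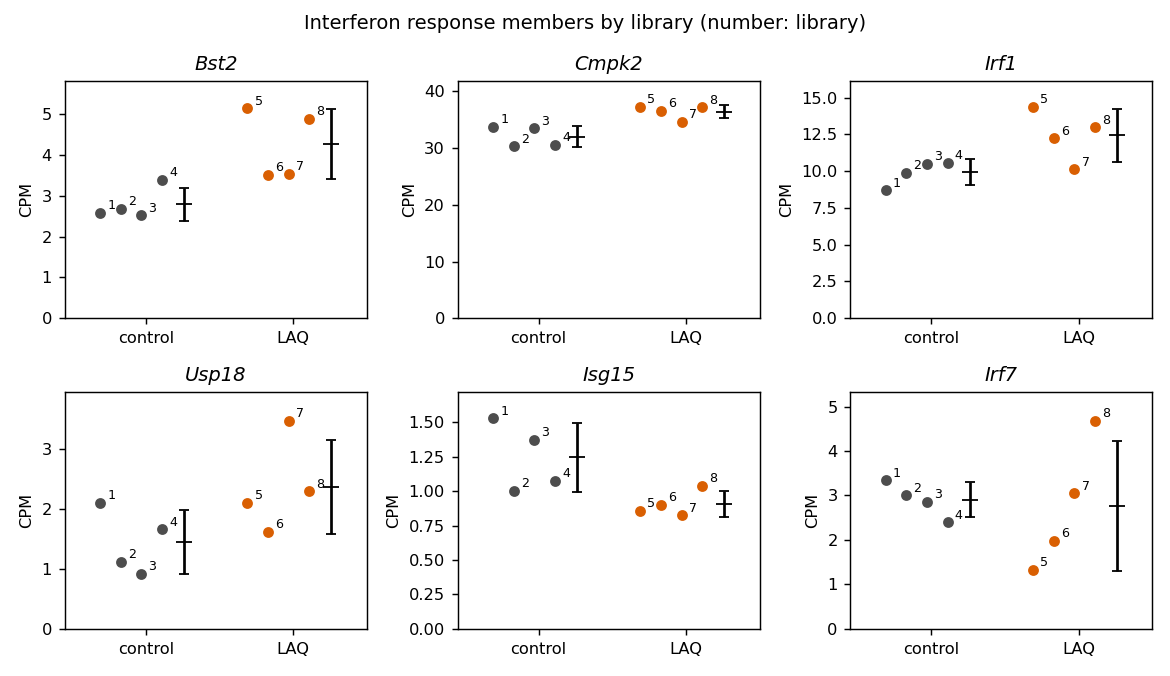
CPM of 6 interferon response members in each library (points, numbered by library), with the mean and SD of 4 libraries beside them. Bst2 and Cmpk2 show no overlap between the groups, and the LAQ libraries of Irf7 spread from 1.33 to 4.68 CPM around the control values.

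The Ifit genes, which bind foreign RNA and lie in a cluster on chromosome 19, did not differ beyond their spread. Ifit1 had a control mean of 3.00 ± 0.792 CPM and a LAQ mean of 2.95 ± 0.220 CPM, Ifit2 averaged 12.1 ± 1.09 and 13.03 ± 1.18 CPM, and Ifit3 averaged 2.97 ± 0.786 and 3.31 ± 1.16 CPM. Ifit2 was thus the most abundant of them, also per length, at 3.07 CPM per kb in control against 1.13 for Ifit1. Oas1a, an enzyme that makes the activator of RNase L, averaged 0.918 ± 0.366 and 0.941 ± 0.455 CPM. Oasl2, a related protein, averaged 3.10 ± 1.34 and 3.89 ± 0.533 CPM. The Ifit and Oas genes have close paralogs, so their counts are uncertain.

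Ifi27, a mitochondrial protein of the interferon response, was the effector with the most reads and had a control mean of 47.9 ± 3.85 CPM and a LAQ mean of 53.3 ± 8.77 CPM. LAQ 8 was highest at 64.7 CPM and control 4 lowest at 43.8 CPM, with overlap between the groups. Dtx3l, a ubiquitin ligase that acts with Parp9, averaged 5.55 ± 0.635 and 6.60 ± 1.30 CPM, and Xaf1, a pro-apoptotic protein, averaged 8.27 ± 1.73 and 9.45 ± 1.61 CPM. Trim30a, a negative regulator of NF-kappa-B signalling with close paralogs, averaged 1.76 ± 0.852 and 2.20 ± 0.763 CPM. On the other side of 0 lay Ifi35, at 6.36 ± 0.623 and 5.85 ± 0.673 CPM, and Parp14, an ADP-ribosyltransferase, at 1.31 ± 0.558 and 1.16 ± 0.371 CPM. Rtp4, an interferon-induced chaperone of receptors, averaged 2.86 ± 0.916 and 2.85 ± 0.654 CPM. The edgeR adjusted p of these 7 genes ranged from 0.645 (Dtx3l) to 0.999 (Rtp4). Dtx3l shares 8.00% of its exonic length with Parp9 on the opposite strand, and Ifi35 shares 16.8% with an antisense gene. Since the strand setting of the counting is not given, reads of such pairs cannot be told apart. Rtp4 shares 13.9% with Gm45338 on the same strand, so its count is uncertain under any strand setting.

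Mx1 and Mx2, of the family of antiviral Mx GTPases, and the gene Ifi44 were below the filter. The GENCODE M21 annotation gives Mx2 as a polymorphic pseudogene. Mx1 had 10 reads in all control libraries together and 13 in LAQ, Mx2 had 38 and 48, and Ifi44 had 31 and 27. In a fit without the filter their edgeR adjusted p ranged from 0.872 to 0.939. No difference was detected in these 3 genes, and the SE of their log2 fold changes, from 0.516 (Mx2) to 0.817 (Mx1), was wide.

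The class II genes did not all lie on the same side of 0. H2-Aa and H2-Ab1, the alpha and beta chains of the class II molecule I-A, and Cd74, the invariant chain that guides class II molecules to the endosome, had higher means in LAQ. Ciita had a lower one. H2-Aa stood at 6.31, 5.90, 6.52 and 9.85 CPM in control 1 to 4 and at 10.9, 8.10, 6.42 and 13.4 CPM in LAQ 5 to 8. H2-Ab1 stood at 11.7, 6.57, 10.6 and 14.98 CPM in control and at 16.5, 10.2, 10.4 and 20.1 CPM in LAQ. LAQ 8, LAQ 5 and control 4 were the 3 highest libraries of both genes, and control 2 was the lowest of H2-Aa and of H2-Ab1. Cd74 stood at 28.5, 19.3, 29.7 and 34.5 CPM in control and at 36.1, 34.1, 25.4 and 53.2 CPM in LAQ, with LAQ 8 highest and control 2 lowest again. The log2 fold changes were 0.42 ± 0.24 for H2-Aa, 0.36 ± 0.26 for H2-Ab1 and 0.40 ± 0.21 for Cd74 (SE), with edgeR adjusted p of 0.537, 0.643 and 0.504. Without LAQ 7 they were 0.58, 0.49 and 0.55, and without LAQ 8 they were 0.23, 0.16 and 0.18.

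H2-Eb1, the beta chain of the I-E molecule, was far below the I-A chains and under the filter. It had 28 reads in the control libraries together and 24 in LAQ, or 0.359 CPM per kb in control against 1.88 for H2-Aa and 4.27 for H2-Ab1. The 3 genes lie side by side on chromosome 17, from 34257689 to 34316674 in GRCm38 with the GENCODE M21 annotation. H2-Eb1 and H2-Aa share the Y box core shown above, and the promoter of H2-Ab1 was not among those searched.

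Ciita, the transactivator that class II genes need, had 28, 32, 29 and 17 reads in control 1 to 4 and 23, 12, 21 and 8 reads in LAQ 5 to 8. In CPM these were 2.68, 3.56, 3.32 and 1.41 in control, and 2.19, 1.08, 1.73 and 0.832 in LAQ. Control 4 lay among the LAQ libraries, and the other 3 control libraries lay above them all. The mean was 1.88-fold higher in control, with a log2 fold change of -0.88 ± 0.37 (SE), an edgeR p of 0.0353 and an adjusted p of 0.420. Without LAQ 7 the log2 fold change was -0.97, with an adjusted p of 0.211. In LAQ 8 Ciita was lowest of all 8 libraries while H2-Aa, H2-Ab1 and Cd74 were highest. Ciita shares 3.45% of its exonic length with Dexi on the opposite strand.

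**Figure D4:**
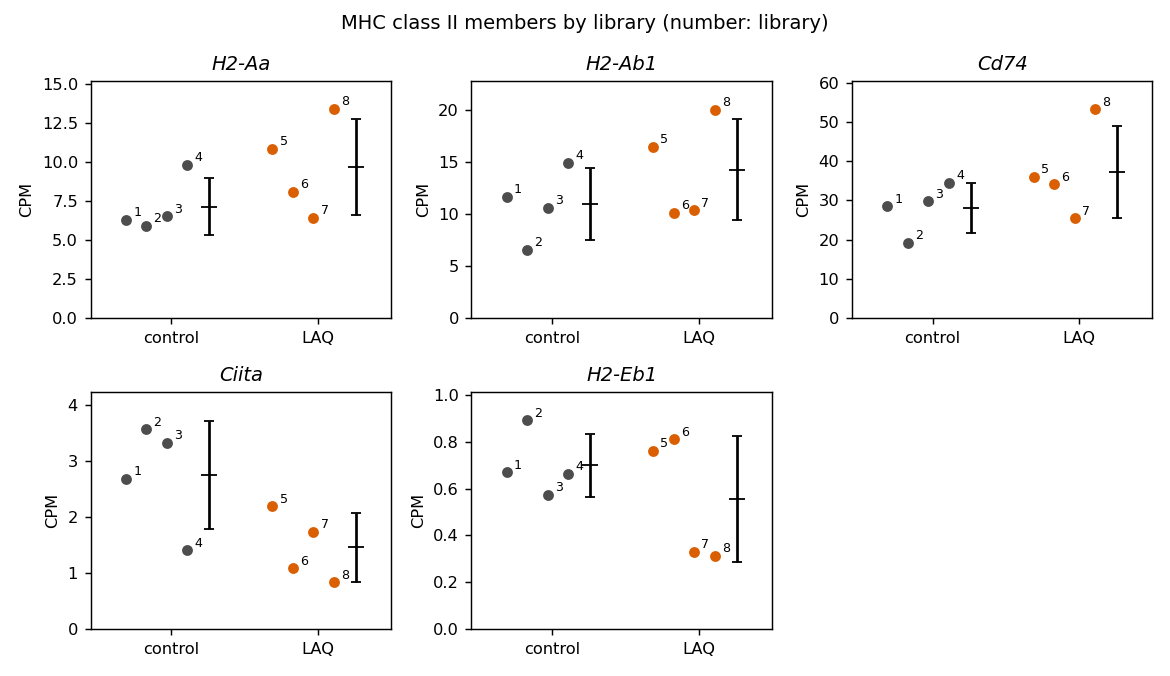
CPM of the 5 class II members in each library (points, numbered by library), with the mean and SD of 4 libraries. H2-Aa, H2-Ab1 and Cd74 are highest in LAQ 8, where Ciita is lowest at 0.832 CPM, and H2-Eb1 stays below 1 CPM throughout.

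H2-Aa, H2-Ab1 and Cd74 were highest in LAQ 8, which like LAQ 5 had a high choroid plexus marker sum. H2-Eb1, at 3 to 9 reads per library, had another order, with its highest value of 0.891 CPM in control 2 and its lowest of 0.312 CPM in LAQ 8. The 4 choroid plexus markers (Ttr, Kl, Folr1 and Clic6) summed to 2012, 382, 783 and 2455 CPM in control 1 to 4 and to 3584, 1265, 1617 and 3469 CPM in LAQ 5 to 8. Ttr made up most of each sum, with 339 of 382 CPM in control 2 and 3270 of 3469 CPM in LAQ 8. Relations to the sum therefore rest mainly on Ttr. Each marker was highest in LAQ 5. Ttr and Folr1 were higher in LAQ 8 than in any control library. Kl and Clic6 were instead higher in control 4 (117 and 46.8 CPM) than in LAQ 8 (104 and 42.6 CPM). All 4 markers had a log2 fold change above 0, none had an unadjusted edgeR p under 0.05, and the control range of 382 to 2455 CPM overlapped the LAQ range of 1265 to 3584 CPM. Over the 8 libraries, log2 CPM of H2-Ab1 followed the log2 sum with Pearson's r = 0.930 (exact permutation p = 0.000397, adjusted 0.00476) and Spearman's rho = 0.905 (exact permutation p = 0.00456, adjusted 0.0548). Without control 2 and control 3, the libraries farthest from the median sum on the log2 scale, r was 0.943 over 6. For Cd74, r was 0.794 and rho 0.786 (exact permutation p = 0.0193 and 0.0279, adjusted 0.0888 and 0.147). For H2-Aa, r was 0.775 and rho 0.762 (exact permutation p = 0.0222 and 0.0368, adjusted 0.0888 and 0.147). Without the same 2 libraries r was 0.642 for Cd74 and 0.768 for H2-Aa. For Ciita, r was -0.625 and rho -0.548 (exact permutation p = 0.0980 and 0.171, adjusted 0.294 and 0.513), and the relation did not hold without those 2 libraries, with r = 0.00175. These tests were two-sided and belong to 12 relations, of these 4 genes with 3 marker sums, that were chosen after the data had been seen. No correlation was computed within a group, since each holds 4 libraries. The permutations ran over all 8 libraries without regard to group, so a difference between LAQ and control enters r and p.

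With the log2 choroid plexus sum as a covariate, an alternative chosen once the data were known, the log2 fold change of H2-Ab1 was -0.06 ± 0.17 (SE). It was 0.13 ± 0.23 for H2-Aa, 0.12 ± 0.19 for Cd74 and -0.59 ± 0.42 for Ciita. Bst2 stood at 0.42 ± 0.24 and Irf1 at 0.28 ± 0.17 in that fit, and 0 members had an unadjusted edgeR p under 0.05, beside 4 without the covariate. Over all tested genes that share was 7.30% with the covariate and 11.1% without it.

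**Figure D5:**
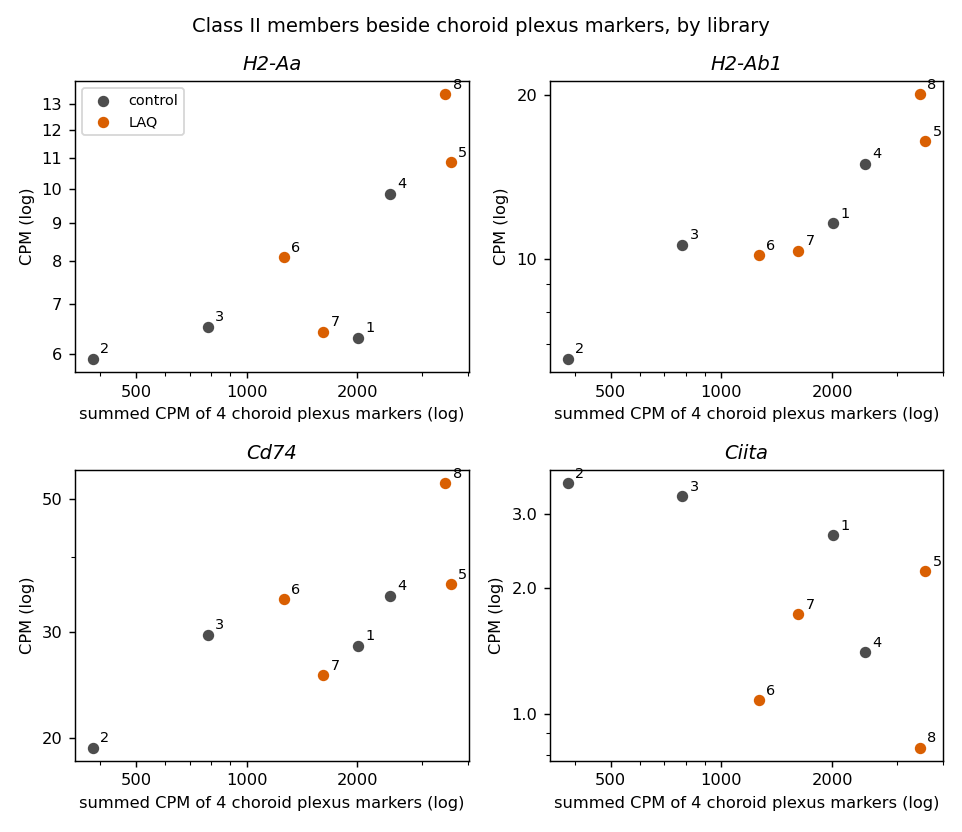
CPM of 4 class II members against the summed CPM of the 4 choroid plexus markers, 1 point per library on log axes, numbered by library. H2-Ab1 has its lowest value in control 2 and its highest in LAQ 5 and LAQ 8, which also hold the least and the most marker RNA.

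The markers of myeloid cells had another order. The 10 microglia markers summed to 599 to 674 CPM in control and 566 to 665 CPM in LAQ, and 8 of them had a log2 fold change below 0, with a median of -0.08. The 8 border macrophage markers summed to 13.3 to 19.8 CPM in control and 7.02 to 17.9 CPM in LAQ, and all 6 tested ones had a value below 0. Pearson's r with the microglia sum was -0.256 for H2-Ab1, -0.573 for H2-Aa and -0.283 for Cd74 (exact permutation p = 0.547, 0.142 and 0.511, and Spearman's rho -0.143, -0.429 and -0.405 with p = 0.752, 0.299 and 0.327). With the border macrophage sum, r was 0.204, -0.0751 and -0.154 for these genes (exact permutation p = 0.604, 0.885 and 0.650, and rho 0.119, -0.167 and -0.214 with p = 0.793, 0.703 and 0.619). For Ciita, r was 0.0802 with microglia and 0.384 with border macrophages (exact permutation p = 0.841 and 0.378, and rho 0.0714 and 0.238 with p = 0.882 and 0.582). After adjustment over the 12 relations these p-values ranged from 0.340 to 0.885. Each r was also computed without the 2 libraries farthest from the median sum on the log2 scale. With border macrophages, without LAQ 6 and LAQ 8, it was 0.690 for H2-Ab1, 0.673 for Cd74, 0.451 for H2-Aa and -0.861 for Ciita. These values over 6 libraries were not tested, and r with this sum thus depends on which libraries are included. With microglia, without control 1 and LAQ 5, r ranged from -0.354 (H2-Aa) to 0.0241 (Ciita). Fewer cells of a type and less RNA per cell cannot be told apart in such bulk samples.

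Lymphocyte markers other than Cd4 were low. The 4 B cell markers summed to 0.166 to 0.936 CPM, with Ms4a1 at 0 in all libraries, and Cd3e, a T cell receptor subunit, reached at most 0.416 CPM. The T cell marker Trac had 3 to 11 reads per library and reached at most 1.23 CPM. Cd4 stood at 5.62 to 56.3 CPM, above these T cell genes in every library. The 7 dendritic cell markers summed to 24.7 to 31.6 CPM in control and 21.1 to 28.6 CPM in LAQ, mostly from Zbtb46 (11.96 to 18.1 CPM) and Flt3 (5.94 to 10.7 CPM), whose groups overlapped. Xcr1 and Clec9a, of cross-presenting dendritic cells, reached at most 0.111 and 0.0956 CPM, and all 4 tested markers had a log2 fold change below 0. Cd209a, a lectin of dendritic cells and macrophages, had a control mean of 1.98 ± 0.253 CPM and a LAQ mean of 1.03 ± 0.305 CPM without overlap (log2 fold change -0.96 ± 0.29 SE, edgeR adjusted p 0.278), in the direction of Ciita. The part of these cells in the class II values was not tested. The summed level of the 4 ependyma markers was higher in every LAQ library than in any control library, at 27.5 to 32.4 CPM against 14.4 to 20.6 CPM. All 4 had an unadjusted edgeR p under 0.05, beside 11.1% of all tested genes, and none passed the adjusted threshold (adjusted p 0.229 to 0.357). The groups did not overlap for Tmem212 and Dynlrb2, beside 6.39% of all tested genes, and overlapped for Foxj1 and Ccdc153. The part of ependyma in the member values was not tested either.

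Of 102 further genes of both pathways, 77 were tested and 0 passed the edgeR threshold. Of these, 5 (6.49%, beside 11.1% of all tested genes) had an unadjusted p under 0.05, and 8 (10.4%, beside 6.39%) showed no overlap between the groups, 6 of them higher in LAQ. The median log2 fold change was 0.04. By class, 4 of 5 receptor and kinase genes, 4 of 9 STAT and IRF factors, 2 of 4 inhibitors, 5 of 12 genes of nucleic acid sensing and 16 of 30 other interferon-stimulated genes had a value above 0. Among the class II pathway genes all 17 tested ones had a value above 0, beside 49.7% of all tested genes. Their median was 0.08, and the lowest value was 0.01 ± 0.10 (SE) for Rfxank. Of these 17, 1 (5.88%), March8, had an unadjusted edgeR p under 0.05, beside 11.1% of all tested genes. The count above 0 was 12 of 17 without LAQ 5, 13 without LAQ 8 or control 2, 16 without LAQ 7 and 11 with the choroid plexus covariate.

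Of the further genes of smallest p with higher means in LAQ, Pias1, March8, Tbk1, Irf5 and Tap1 showed no overlap between the groups. The log2 fold change was 0.16 ± 0.06 (SE) for Pias1, an inhibitor of STAT signalling, 0.17 ± 0.07 for March8, a ubiquitin ligase that acts on membrane proteins, and 0.15 ± 0.07 for Tbk1, the kinase of Irf3. It was 0.21 ± 0.10 for Irf5 and 0.37 ± 0.18 for the peptide transporter Tap1, and the edgeR adjusted p ranged from 0.388 (Pias1) to 0.475 (Tap1). Irf5 is a factor downstream of Toll-like receptors.

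On the lower side, Slfn5, an interferon-induced member of the Schlafen family, had a control mean of 5.24 ± 1.20 CPM and a LAQ mean of 3.11 ± 1.12 CPM (log2 fold change -0.75 ± 0.26 SE, edgeR adjusted p 0.350). LAQ 7 was the exception, at 4.78 CPM against 2.38 to 2.79 CPM in the other LAQ libraries. Without LAQ 7 Slfn5 stood at -1.04 with an edgeR adjusted p of 0.0476, the only gene of the wider list past the threshold there. Over all genes tested without LAQ 7, 339 of 15898 (2.13%) passed it. Traf3 (-0.22 ± 0.08) and Ticam1 (-0.37 ± 0.18), adaptors of nucleic acid sensing, were lower in every LAQ library than in any control library. Such non-overlap was seen in 3.61% of all tested genes. The margins were small, with LAQ 5 at 66.1 and control 4 at 67.9 CPM for Traf3. For Ticam1 these libraries stood at 5.43 and 5.54 CPM. Traf3 was lowest in LAQ 7 at 53.6 CPM, and its log2 fold change was -0.16 without LAQ 7. Tlr7 (-0.47 ± 0.25), a sensor of single-stranded RNA, Znfx1 (-0.19 ± 0.11) and Pml (-0.26 ± 0.17) overlapped between the groups. By mean level, the 3 most abundant genes with a log2 fold change above 0 were the kinase Jak1 (0.05 ± 0.08), the protease Lgmn (0.07 ± 0.07) and March8, given above. Those below 0 were the RNA editing enzyme Adar (-0.05 ± 0.07), Stat3 (-0.01 ± 0.07) and Znfx1, and the groups of Jak1, Lgmn, Adar and Stat3 overlapped.

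By their pattern over the 8 libraries, the tested genes most like Ciita were Arhgef17 (Pearson's r = 0.967), Hist1h1e (0.947) and Zfp771 (0.933). Among those most like Irf7 were Rplp2 (0.966) and Hgf (0.955). These are among the highest correlations over all other tested genes and are given as a description.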

How the data were processed

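The authors deposited a table of unnormalized read counts, with 1 row per gene symbol. The submitters' processing notes name GRCm38.p3 and the tools HTSeq, STAR 2.5.2b, DESeq2 1.10.1 and bcl2fastq 2.17.1.14. The annotation release, strand setting and read filters are not given in the sources used here. A table of normalized values of the same libraries was not used, and 0 columns of the count table were left out.

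Genes were kept by filterByExpr (minimum count 10, minimum total 15). LAQ was compared with control by edgeR 4.0.16's two-sided quasi-likelihood test with TMM factors and Benjamini-Hochberg adjustment over all genes tested (limma 3.58.1, R 4.3.3), threshold 0.05. The standard error is the log2 fold change divided by the square root of F. Log2 CPM used a prior count of 2. The test was tested on simulated data. Positions and exonic lengths (merged exons, which retained introns lengthen) came from GENCODE M21, matching 34 members, and promoters from RefSeq. Relations across libraries used exact permutations. Alternatives were median-of-ratios scaling, library size alone, no filter, at least 1 CPM in 4 libraries, DESeq2 1.42.0, voom, an adjusted threshold of 0.1 and leaving out each library.

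The members and lists were chosen with earlier results of these data known. Named genes were all members, of the wider list up to 6 per direction by p and 3 by mean CPM, and the 3 genes most like Ciita and Irf7. Some genes that this rule names are not reported here. Other genes named, such as the markers, were chosen after their values were seen. Figures used matplotlib 3.10.9.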

Additional observations from a re-analysis of the deposited data

Results flagged for a closer look

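Within each group of 4 libraries, 60 sets of values (30 tested members in 2 groups) were examined for a library far from the others, and 2 were found, where chance flags about 1 in 20. Ifih1 stood at 2.57 CPM in LAQ 5, against 1.89 to 1.98 CPM in the other LAQ libraries. H2-Aa stood at 9.85 CPM in control 4, against 5.90 to 6.52 CPM in the other control libraries, and control 4 also had the highest choroid plexus marker sum of the controls, 2455 CPM.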

How the results depend on the processing

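The number of members past the adjusted threshold was 0 under every alternative run, DESeq2 (with 2 members at an unadjusted p under 0.05), the threshold of 0.1 and each left-out library included. Over all genes it was 129 with DESeq2, 25 without a filter, and 0 to 339 when 1 library was left out, the 339 without LAQ 7. Members with an unadjusted p under 0.05 numbered 2 with voom, 0 with the choroid plexus covariate and 1 to 7 with 1 library left out. The count over the 15771 genes of the main fit moved as well. It was 1586 with DESeq2, 1787 with voom and 1152 with that covariate, beside 1750 in the main fit. With 1 library left out it ran from 1240 (without control 2) to 3109 (without LAQ 7). In the wider list 0 to 1 gene passed with 1 library left out. An adjusted threshold has no bearing on unadjusted counts, so that alternative was not run for them. Of the 30 members, 17 kept their sign throughout, among them Bst2, Cmpk2, Irf1, Usp18, Isg15, H2-Aa, Cd74 and Ciita. H2-Ab1 turned to -0.0644 with the choroid plexus covariate, and Ifit1 to 0.0226 with voom and 0.0711 with that covariate. Stat3 turned to 0.00477 without a filter and 0.0324 with the covariate. The cause was not tested. With 1 library left out, log2 fold changes ranged from -0.0430 to 0.16 for Ifnar2, -0.00350 to 0.13 for Ifngr1, -0.12 to 0.0290 for Stat2, -0.0190 to 0.20 for Irf9, -0.0232 to 0.0948 for Irf3, -0.43 to 0.15 for Irf7, -0.41 to 0.0283 for Ifih1, -0.18 to 0.11 for Ifit1, -0.0258 to 0.32 for Ifit3, -0.22 to 0.30 for Oas1a, -0.17 to 0.21 for Rtp4, -0.39 to 0.0846 for Parp14 and -0.0364 to 0.0456 for Stat3. No paired analysis was possible because the groups share no replicate numbers. Members such as Isg15, with 9 to 16 reads per library, limit what could be detected at this depth.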

Other observations

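Phf11d, an interferon-induced gene of the PHD finger family, lay below the expression filter and was picked out after its values were seen. It had 2, 1, 0 and 5 reads in control 1 to 4 and 9, 9, 11 and 13 reads in LAQ 5 to 8, so that every LAQ library exceeded every control library. In the edgeR fit without a filter LAQ minus control came to 2.27 ± 0.63 (SE) on the log2 scale (adjusted p 0.208). Its close paralogs in the same cluster make the count uncertain.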
